A study of Mus musculus with 8 samples.

Results

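Cytochrome P450 genes were taken as the protein-coding genes of the mouse GENCODE M21 annotation whose symbol is Cyp followed by a family number, a subfamily letter and a member number, which gave 93 of 22028 protein-coding genes. They fall into 38 subfamilies and, when members less than 100 kb apart are joined, 41 loci. The pattern leaves out 7 further P450 genes whose symbols also begin with Cyp, such as Cyp51 and Cyp4a12a. P450 genes whose symbols do not begin with Cyp were not sought. ATAC-seq, in which a transposase inserts sequencing adapters into open chromatin, had been run on nuclei of frozen adult C57BL/6 liver (C57BL/6J in the study's methods), in 4 libraries from control and 4 from Alb-D2KO mice, with 50000 nuclei in each. Both groups carried Cre recombinase driven by the albumin promoter, and the Alb-D2KO mice also carried the floxed Dio2 allele, so that the type 2 deiodinase (D2), which makes the active thyroid hormone T3, was inactivated in hepatocytes and not in the other cells of the liver. The data consist of 8031 regions called in control liver and overlapped by no region of Alb-D2KO liver, named RCAs or lost regions here, and 250 regions called in Alb-D2KO liver alone, named gained regions. Each list came from 1 call over the pooled libraries of a genotype, so no value has a replicate error and no test over animals is possible; intervals below are 95% Wilson intervals over genes or regions, which cover counting error only and take neighbouring genes as independent, although they can share regions.

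P450 enzymes are haem proteins that insert oxygen into fat-soluble molecules, with electrons supplied by P450 oxidoreductase in the endoplasmic reticulum or by ferredoxin in mitochondria. The liver uses them to clear drugs and plant toxins (families CYP1 to CYP3), to turn cholesterol into bile acids (CYP7A, CYP7B, CYP8B, CYP27A), and to oxidise fatty acids and eicosanoids (CYP2J, CYP4). In mice many of them lie in clusters of near-identical copies, and many are controlled by nuclear receptors. The Cre-targeted gene itself cannot be checked from the lists, since no RCA lay within 10 kb of Dio2. RCAs did lie at hepatocyte genes, with 2 within 10 kb of Alb (albumin) and 5 within 10 kb of Apoa1 (apolipoprotein A1).

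Of the 93 P450 genes, 12 had an RCA across 200 bp around one of their own annotated start sites: Cyp2a12, Cyp2a22, Cyp2d9, Cyp2d10, Cyp2d26, Cyp2d40, Cyp2j5, Cyp2j6, Cyp3a13, Cyp7b1, Cyp8b1 and Cyp26a1. The DNA of the 6 such RCAs with the largest area, the signal measure explained below, is shown here because it is the start-site sequence that was called accessible in control liver alone. Each line gives 110 bases upstream of the annotated start in lower case and the first 20 transcribed bases in capitals, 5′ to 3′ on the gene's strand, from the mm10 build.
Cyp2d10 (chr15:82407176-82407305, minus strand): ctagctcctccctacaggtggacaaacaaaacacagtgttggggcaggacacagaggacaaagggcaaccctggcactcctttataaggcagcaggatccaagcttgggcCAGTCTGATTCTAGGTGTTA
Cyp2j5 (chr4:96664135-96664264, minus strand): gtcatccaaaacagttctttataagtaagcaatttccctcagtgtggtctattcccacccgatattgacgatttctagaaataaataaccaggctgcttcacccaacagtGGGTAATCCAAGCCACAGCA
Cyp7b1 (chr3:18243319-18243448, minus strand): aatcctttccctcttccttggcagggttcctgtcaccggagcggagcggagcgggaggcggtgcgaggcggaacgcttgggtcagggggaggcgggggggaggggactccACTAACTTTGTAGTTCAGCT
Cyp2d9 (chr15:82452224-82452353, plus strand): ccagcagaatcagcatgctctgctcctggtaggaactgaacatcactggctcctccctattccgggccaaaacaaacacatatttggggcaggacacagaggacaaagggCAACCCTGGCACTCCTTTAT
Cyp26a1 (chr19:37697688-37697817, plus strand): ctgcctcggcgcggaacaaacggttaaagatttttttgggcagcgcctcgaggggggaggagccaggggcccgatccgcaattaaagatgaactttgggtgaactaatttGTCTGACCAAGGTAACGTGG
Cyp2d26 (chr15:82794275-82794404, minus strand): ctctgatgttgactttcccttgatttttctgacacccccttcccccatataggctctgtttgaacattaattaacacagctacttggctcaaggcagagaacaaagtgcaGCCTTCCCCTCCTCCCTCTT

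The 12 start-site sequences were mostly low in GC for RCAs at start sites, and within the Cyp2d and Cyp2a subfamilies most were alike. Aligned over 300 bases centred on the start, the Cyp2d10 and Cyp2d9 sequences were 87.1% identical over 255 columns, and Cyp2d10 and Cyp2d40 were 82.6% identical over 299 columns. Cyp2d26, of the same subfamily, was less alike, with 61.9% identity to Cyp2d10 over 236 columns. Cyp2a12 and Cyp2a22 formed the closest pair, with 95.3% identity over 300 columns. The remaining pair of 1 subfamily, Cyp2j5 and Cyp2j6, had 57.1% identity over 156 columns. Cyp2d40 and the Cyp2a pair are shown for these likenesses, which were seen before they were chosen.
Cyp2d40 (chr15:82764164-82764293, minus strand): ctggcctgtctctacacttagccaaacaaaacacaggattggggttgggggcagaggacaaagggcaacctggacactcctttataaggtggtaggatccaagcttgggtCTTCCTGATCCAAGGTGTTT
Cyp2a12 (chr7:27028971-27029100, plus strand): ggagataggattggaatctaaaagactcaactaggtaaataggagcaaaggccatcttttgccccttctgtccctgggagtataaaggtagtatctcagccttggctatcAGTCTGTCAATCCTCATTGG
Cyp2a22 (chr7:26939365-26939494, minus strand): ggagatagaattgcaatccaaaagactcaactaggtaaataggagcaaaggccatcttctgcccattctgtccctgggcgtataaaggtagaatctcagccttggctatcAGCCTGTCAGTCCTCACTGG

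The letters TATAA, the core of a TATA box, stand close before the capitals in Cyp2d10, Cyp2d40, Cyp2a12 and Cyp2a22. They were searched, after these sequences had been seen, on the gene's strand from 40 to 16 bp before the annotated gene start. They were found at 5 of the 12 genes (41.7%), the 4 named and Cyp8b1. The pairs Cyp2a12 and Cyp2a22 (95.3% identical) and Cyp2d10 and Cyp2d40 (82.6%) are alike in sequence, so these 5 are not independent. For Cyp2d9 the gene start lies 19 kb from its RCA, and the count was also 5 of 12 when the start at the RCA was taken for each gene. That start was the most upstream one at the RCA. At Cyp2d9 its 20 printed capitals match bases that precede the Cyp2d10 start, and letters after the start were not searched. With the annotated gene start, the share with TATAA was 11.1% at the 18 P450 genes with RCAs elsewhere and 15.9% at the 63 P450 genes without an RCA. It was 2.25% at the 1291 other protein-coding genes with an RCA at their own start, and 4.14% at 21845 other genes. With Cyp2d9 again at its gene start, the median GC content from 250 bp before to 50 bp after the start was 47.7% at the 12 genes (range 44.0% to 62.7%), against 58.3% at the 1291 other genes and 48.3% at all 93 P450 genes. The highest GC over a whole region was in the RCAs at Cyp26a1, which breaks down retinoic acid, at 64.7%, and at Cyp7b1, the oxysterol 7-alpha-hydroxylase, at 64.0%.

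Counted over whole RCAs, the 15 promoter-class regions at P450 genes had a median GC of 50.2% (44.3% to 64.7%), beside 60.0% in the 1560 promoter-class RCAs of the genome. In the other 33 regions the medians were closer, at 49.3% against 50.9%. A match is given below as letters only and not as a bound site. Among 300-bp windows centred on the summit, the HNF4 letters CAAAGTCCA, searched on both strands, were in 2 of the 15 promoter-class RCAs (13.3%), at Cyp8b1 and Cyp2d40, against 1.35% of all promoter-class RCAs. In the other classes they were in 0 of 33, against 2.93%. Over all classes they were in 2 of the 48 RCAs at P450 genes (4.17%), against 2.62%. The other motifs are given over all classes only. At Cyp8b1, the sterol 12-alpha-hydroxylase that sets the share of cholic acid among bile acids, the match began 67 bp before the start and is shown in capitals with 15 bases on either side.
Cyp8b1 (chr9:121916349-121916387, minus strand): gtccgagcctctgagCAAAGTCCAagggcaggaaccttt

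At Cyp2d40 the match lay 427 bp after the start. The nuclear receptor core AGGTCA was in 12 of the 48 RCAs near P450 genes (25%) and in 30% of the 8021 RCAs on the main chromosomes. The extended core CAAGGTCA, which contains the former, was in 4.17% and 3.43%. C/EBP letters (TTGCNNAA) were in 20.8% and 18.4%, FOXA letters (TGTTTAC) in 12.5% and 6.66%, and STAT letters (TTCNNNGAA) in 4.17% and 10.3%. The dioxin-response core TNGCGTG, read by the aryl hydrocarbon receptor, was in 5 RCAs (10.4%, against 4.41%). These were at Cyp27a1, Cyp8b1 and Cyp2c23, in an intron of Cyp1a1 and before Cyp1b1. Cyp1a1 and Cyp1b1 are classical targets of that receptor. The other RCA of Cyp1a1 and the RCA of Cyp1a2 had no match. Direct repeats of AGGTCA spaced by 1 or by 4 bases were in none of the 48 and in 0.137% and 0.0249% of all RCAs. At least 1 of the 9 motifs was in 26 of the 48 windows (54.2%) and in 54.8% of all, so the windows as a whole held these letters about as often as other RCAs.

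The share of genes with any RCA was less far from the background. An RCA overlapped or lay within 10 kb of 30 of the 93 P450 genes (32.3%, interval 23.6% to 42.3%), and of 24.9% of the 21935 other protein-coding genes. With the other genes weighted to the lengths of the P450 genes, the share was 25.5%, or 23.7 genes, which lies inside the interval. Gene bodies had a median length of 21.2 kb for P450 and 17.3 kb for other genes. No P450 gene had a gained region within 10 kb, which allows a share of up to 3.23% (3 genes of 93, the limit set for a count of 0 in place of a Wilson interval), and 1.03% of the other genes had one. An RCA at an own start site was found for 12.9% of the P450 genes (7.54% to 21.2%) and 5.89% of other genes, although P450 genes had fewer annotated start sites, with a median of 2 against 3. With a summit q under 0.001 this share fell to 6.45% against 4.08%. Only a start site called open in control liver can be lost, and how many were open is not known for either set. This limit holds for every share at start sites given here.

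With gene length the share went in opposite directions for P450 and other genes. Among genes under 10 kb, 13 of 23 P450 genes had an RCA (56.5%, 36.8% to 74.4%), beside 17.4% of other genes. At 10 to 20 kb it was 7 of 20 (35%, 18.1% to 56.7%) beside 25.8%. From 20 to 40 kb, 8 of 31 (25.8%, 13.7% to 43.2%) had one, beside 26.8%. At 40 kb and over it was 2 of 19 (10.5%, 2.94% to 31.4%), those being Cyp7b1 and Cyp2c29, beside 32.8%. The interval excluded the background in the shortest and the longest class, but it takes genes as independent. Many genes of the longest class are neighbours in the Cyp2c and Cyp2j clusters. Of its 19 genes, 11 lay in stretches between RCAs without any control region (described below), where no region could be lost. Of the shortest genes, 4 of the 7 from the Cyp2d subfamily and 9 of the 16 from other subfamilies (56.2%) had an RCA.

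**Figure D1:**
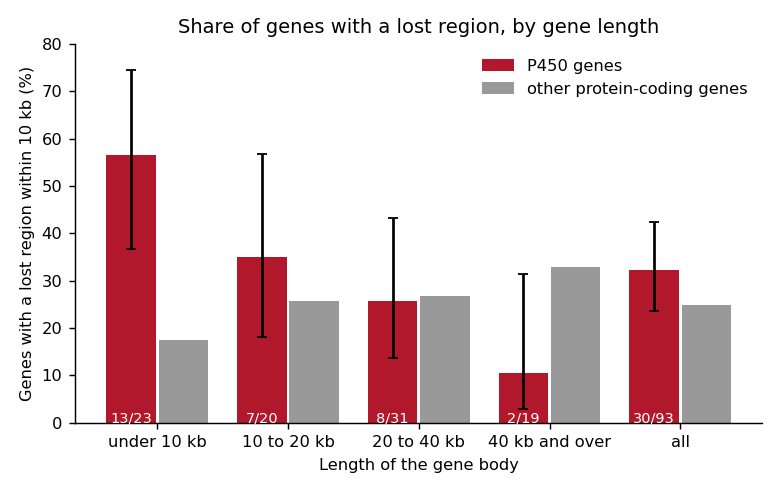
Share of genes with a lost region within 10 kb (y axis, percent) by length of the gene body (x axis), with 95% Wilson intervals as error bars on the 93 P450 genes and the other protein-coding genes in grey. The P450 share fell from 56.5% to 10.5% with length, while that of other genes went from 17.4% to 32.8%.

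Subfamilies differed in the number of members with an RCA. Of the 8 subfamilies with at least 4 members, Cyp2d had 5 of 8, Cyp2a 2 of 4, Cyp4f 3 of 9, Cyp2j 2 of 8, Cyp3a 1 of 7 and Cyp2c 2 of 15, while Cyp2b and Cyp4a had 0 of 5 each. Together they had 15 of 61 (24.6%, 15.5% to 36.7%), as other genes did (24.9%, or 26.3% at the same lengths). The smaller subfamilies had 15 of 32 (46.9%, 30.9% to 63.6%), against 24% of other genes at their lengths. The division at 4 members was not planned in advance. This interval also takes Cyp26a1 and Cyp26c1 as independent, although they shared their RCAs. The large subfamilies had the longer genes, with a median of 24.3 kb against 13.6 kb. The 5 Cyp2d genes held 10 distinct RCAs, more than any other subfamily, and 4 of them had one at their own start, as had both Cyp2a and both Cyp2j genes. In the Cyp4f genes, whose enzymes hydroxylate leukotrienes and long fatty acids, none of the 3 RCAs was at a start site.

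**Figure D2:**
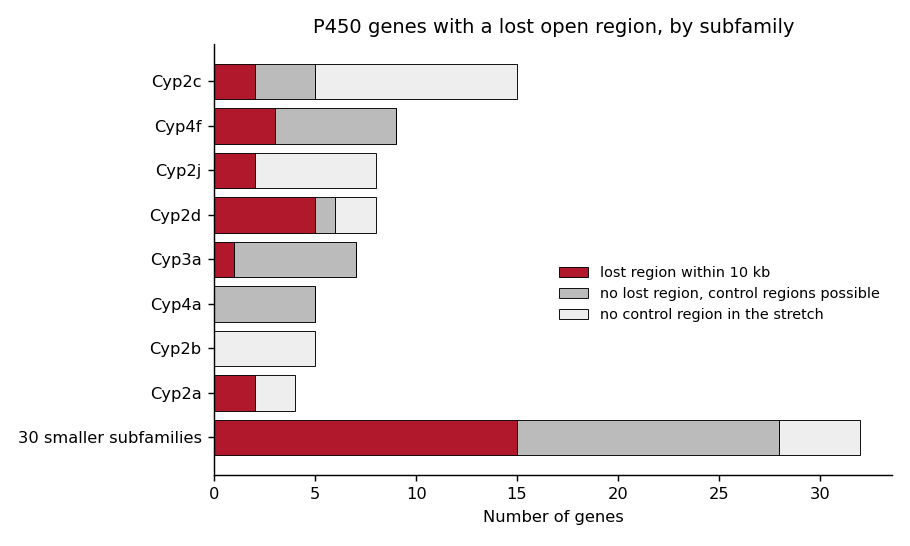
Number of P450 genes (x axis) per subfamily (y axis), coloured by whether a lost region lay within 10 kb, none did although control regions were possible, or no control region at all lay in the stretch. The Cyp2c bar is mostly of the last kind (10 of 15), and so are Cyp2j (6 of 8) and Cyp2b (5 of 5).

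Many members of the large clusters had neither an RCA nor any called open region of control liver nearby. The running number that the peak caller gave each control region tells how many control regions lie between neighbouring RCAs, and counts at least 22368 control regions in all, of which 35.9% were lost. By this count, which is an inference from the numbering, 29 of the 63 P450 genes without an RCA lay in a stretch between RCAs that held no control region (31.2% of all P450 genes, against 2.78% of other genes on the same chromosomes). These were 10 Cyp2c, 6 Cyp2j and 5 Cyp2b genes, Cyp2a4, Cyp2a5, Cyp2d12, Cyp2d34, Cyp2g1, Cyp11b1, Cyp11b2 and Cyp2e1. Neighbours can share a stretch, and all 10 Cyp2c genes lay between the same pair of RCAs. The 29 genes are thus not independent, and the shares count genes and not stretches. Cyp11b1 and Cyp11b2 are adrenal enzymes, but Cyp2e1, the ethanol-oxidising P450, is a hepatocyte gene. The next RCA lay 42.3 kb to the left of the gene and 30.8 kb to the right. Of the 29 genes, 11 were 40 kb or longer.

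Copies of a start site elsewhere in the genome can make reads map poorly, and mapping quality was filtered. A copy, meaning an alignment elsewhere with 95% or more identity across 80% or more of the 401 bp around the start, was found for 17 of the 93 P450 genes (18.3%), against 6.8% of other genes. This was so for 4 of the 30 genes with an RCA, 7 of the 29 in stretches without control regions and 6 of the remaining 34. Of the 48 RCAs, 1 had a copy. The part of mapping in these counts was not tested.

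At 5 loci, taken with 10 kb on either side, every control region was lost, with 13 RCAs around 14 genes, not all of which had an RCA. How often this occurs at loci of other genes was not counted. Cyp8b1, Cyp2c23 and the pair Cyp2d40 and Cyp2d26 each had 3 of 3 lost. The retinoic acid hydroxylases Cyp26c1 and Cyp26a1 had 2 of 2, and so had the Cyp2j cluster of 8 genes, where both control regions in 637 kb were the start sites of Cyp2j6 and Cyp2j5. At Cyp27a1 3 were lost and at most 1 was kept. The largest Cyp2d cluster, from Cyp2d22 to Cyp2d34, had 9 lost and between 2 and 15 kept. The Cyp2c cluster of 4 genes from Cyp2c37 to Cyp2c70 had no control region. Over all 41 loci, 53 control regions were lost and between 5 and 164 kept, so that the lost share lay between 24.4% and 91.4%, a range that holds the genome-wide 35.9%.

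**Figure D3:**
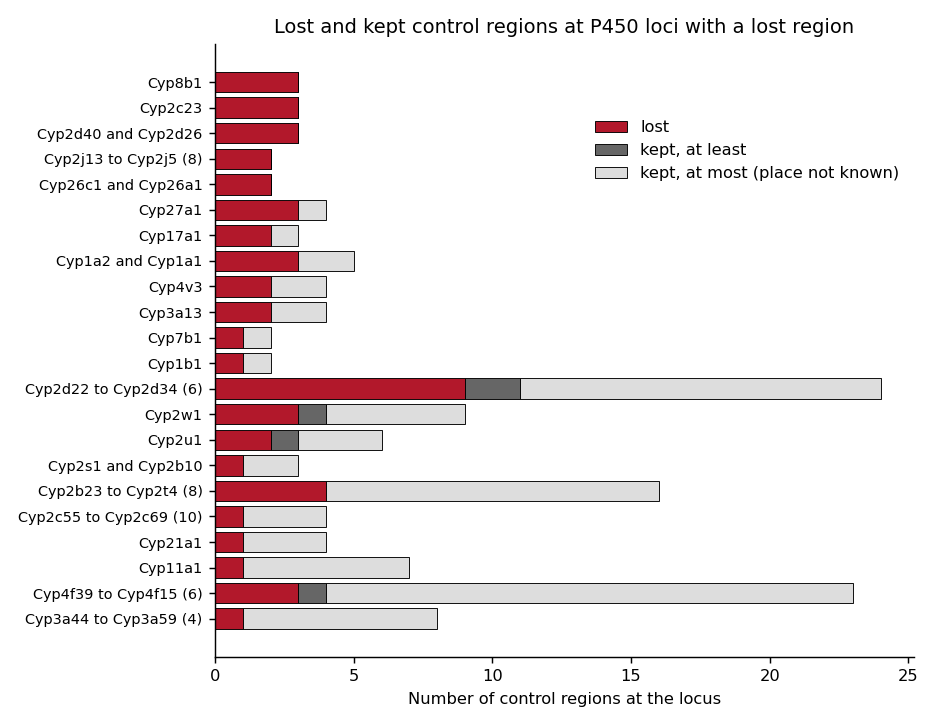
Number of control regions (x axis) that were lost or kept within the P450 loci that had a lost region (y axis, number of genes in brackets), where the light part is the most that could have been kept, since kept regions are known only by number and not by place. The 5 loci at the top, from Cyp8b1 to Cyp26c1 and Cyp26a1, have no kept region.

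The strength of an RCA is given by its area, the authors' sum of the −log10 p curve over the region, which had to exceed 200 to be called. The 48 distinct RCAs at P450 genes had a median area of 273 (quartiles 253 and 360), close to 280 at other genes (233 and 354). They ranged from 204 in an intron of Cyp2w1 to 752, beyond the end of Cyp1a1. Areas of at least 300 made up 39.6% of them and 41.6% of those at other genes. By class, 15 were at promoters of any gene (31.2%, against 22.9% at other genes), 5 in exons (10.4%, 11.9%), 18 in introns (37.5%, 47.1%) and 10 intergenic (20.8%, 18.1%). The 12 RCAs at own start sites had a median area of 315, and those in gene bodies of 255. By class, RCAs at other genes had the same order, with medians of 304 at promoters and 272 in introns. Most of the 30 genes had few RCAs, with 16 having 1, 9 having 2, 4 having 3, and Cyp2d9 having 4.

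**Figure D4:**
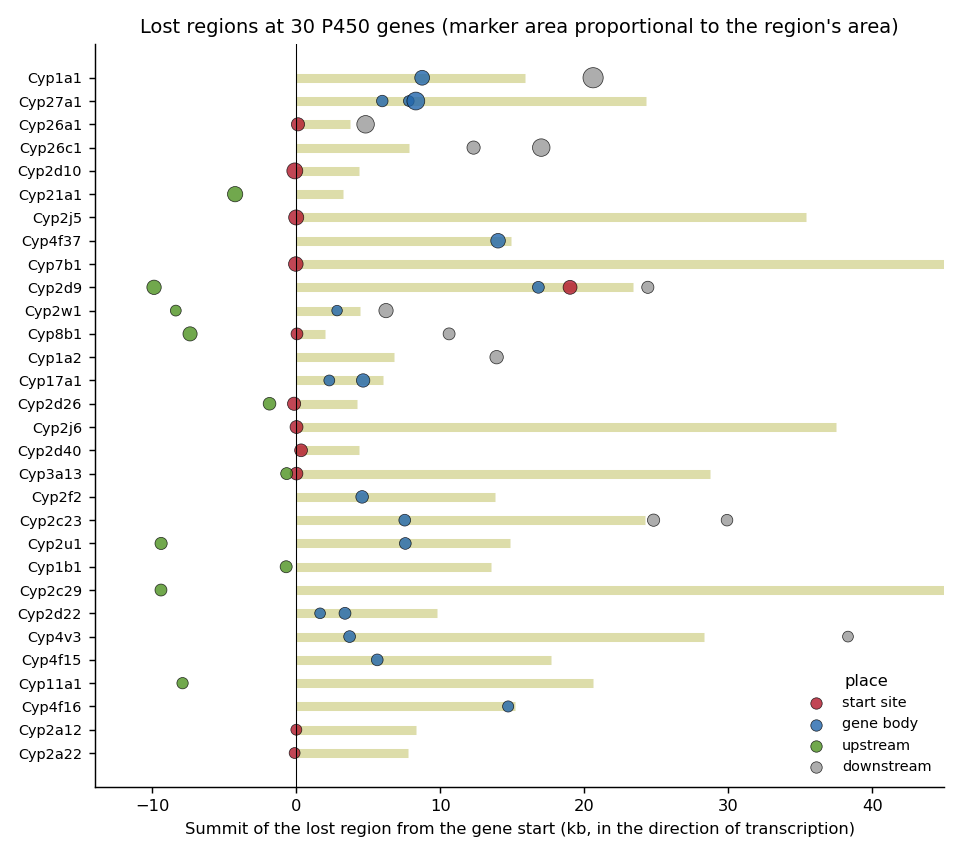
Position of the summit of each lost region from the start of its P450 gene (x axis, kb, negative values upstream) for the 30 genes (y axis, ordered by largest area), with the gene body as a pale bar cut at the right edge for Cyp7b1 and Cyp2c29 and marker size giving the area. The 12 start-site regions sit within 0.32 kb of the start, except that of Cyp2d9, at an internal start 19 kb into the gene.

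Of the 6 sterol and bile acid P450 genes, 3 had an RCA (18.8% to 81.2%), an interval that holds the 27.1% of other genes at the same lengths. Cyp8b1 had RCAs of area 260 across its start (chr9:121916200-121916512), 370 at 7.39 kb upstream in intergenic sequence (chr9:121923510-121923788) and 263 at 10.6 kb past the start, within an intron of Ackr2 (chr9:121905585-121905908). The upstream RCA was thus the strongest of the 3. Cyp7b1, which follows Cyp27a1 in the acidic bile acid pathway, had 1 RCA of area 390, with its summit 44 bp before the start of a gene of 171 kb (chr3:18242889-18243497). Cyp27a1, the mitochondrial sterol 27-hydroxylase, had 3 intronic RCAs of 244, 210 and 587 within 2.33 kb of each other, the last (chr1:74721660-74722180) being the largest inside any P450 gene body. No RCA lay within 10 kb of Cyp7a1, the rate-limiting enzyme of the classical pathway. The nearest were 177 kb to the right and 2336 kb to the left, and up to 4 control regions were kept in that stretch, at places not known. Cyp39a1 and the brain enzyme Cyp46a1 also had none, with the nearest at 397 kb and 41.1 kb.

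Among the genes of foreign-compound metabolism, 15 of 48 had an RCA (31.2%, 19.9% to 45.3%), near the 25% of other genes at the same lengths. At the own start it was 7 of 48 (14.6%, 7.25% to 27.2%), against 5.89% of other genes. The start-site areas were 468 at Cyp2d10, 357 at Cyp2d9, 320 at Cyp2d26, 302 at Cyp2d40, 300 at Cyp3a13 (299.9 before rounding), 221 at Cyp2a12 and 219 at Cyp2a22. Cyp2d9, a male-biased testosterone 16-alpha-hydroxylase, had further RCAs of 381 at 9.89 kb upstream, next to a start of Gm19267, 258 in an intron and 272 beyond its end. Cyp2d26 had another of 296 at 1.87 kb upstream, and Cyp3a13 of 264 at 0.679 kb upstream. Cyp2d22 had RCAs of 261 and 211 in introns. Cyp1a2, a main hepatocyte enzyme for caffeine, had 1 of 331 beyond its end, while Cyp1a1 had 404 in an intron (chr9:57696458-57696941) and 752 at a start site of Edc3 (chr9:57708443-57709296), 20.6 kb from its own start. The largest area at any P450 gene thus lay at the promoter of a neighbour. Cyp2c23 had 248, 277 and 254, of which the last is in an exon, and Cyp2w1 had 218, 204 and 375.

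Several drug-metabolising genes that are standard markers of nuclear receptor activity had no RCA within 10 kb. For Cyp3a11, the main pregnane X receptor target, the nearest were 31.8 kb to the right and 652 kb to the left. At most 4 control regions were kept in that stretch, at places not known. For Cyp2b10, the main CAR target, the nearest was 49.2 kb away and the stretch held no kept region. Cyp2c29 had 1, of 263, at 9.41 kb upstream, within an intron of the pseudogene Cyp2c53-ps. Of the PPAR-alpha targets Cyp4a10 and Cyp4a14, the nearest RCAs were 198 kb and 236 kb to the right. To the left they were 5852 kb and 5820 kb away. Up to 9 control regions were kept in this stretch, which also holds Cyp4x1, at places not known.

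Fatty acid and eicosanoid P450 genes had RCAs at 7 of 26 (26.9%), which is the level of other genes at the same lengths (27.5%), with areas from 215 to 419. The start sites of Cyp2j5 and Cyp2j6, of a subfamily that oxidises arachidonic acid, had 419 and 309, with summits 17 bp before and 4 bp after the start. Cyp4v3 had 256 in an intron and 215 at the start of Klkb1, and Cyp2u1 had 255 in an intron and 275 at 9.4 kb upstream. Steroid hormone genes had RCAs at 3 of 6 (18.8% to 81.2%), beside 21.5% of other genes at the same lengths. None was at a start site, and so few genes cannot be told from the background of 5.89%. Cyp17a1 had 330 and 218 in introns, Cyp21a1 had 430 in an exon of its neighbour C4a, and Cyp11a1 had 236 at 7.91 kb upstream. Of the 6 vitamin A and D genes 2 had an RCA (9.68% to 70%), beside 21.8% of other genes at the same lengths. Cyp26a1 and Cyp26c1 shared RCAs of 321 and 564, the former across the Cyp26a1 start and the latter 4.8 kb from it in intergenic sequence (chr19:37702423-37702841). The vitamin D hydroxylases Cyp2r1, Cyp27b1 and Cyp24a1 had none, with the nearest at 238 kb, 18.2 kb and 10.7 kb.

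**Figure D5:**
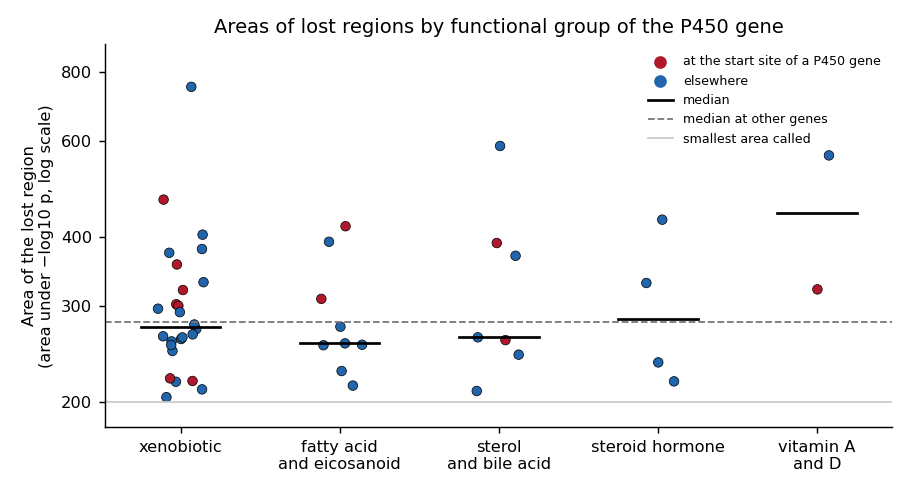
Area of each of the 48 lost regions (y axis, log scale) by functional group of the P450 gene (x axis), in red where it crosses a start site of a P450 gene, with the group median as a black bar. The dashed line marks the median of 280 at other genes, and the largest value, 752, is beyond the end of Cyp1a1.

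Genes that work with P450 enzymes or control them were counted from lists set by role. Of 8 genes for electron transfer and haem, 5 had RCAs (62.5%). They were Por, the P450 oxidoreductase, with 4 (largest area 501), Alas1, which starts haem synthesis, with 4 (939), Cyb5r3 with 4 (405), Cyb5a with 3 (560) and Pgrmc1 with 1 (270), while Cyb5b, Fdx1 and Fdxr had none. Of 15 regulators, 12 had RCAs (80%). The foreign-compound receptors Nr1i2 (pregnane X receptor), Nr1i3 (CAR) and Ahr had 6, 3 and 1. The bile acid and lipid sensors Nr1h4 (FXR), Nr0b2 (SHP), Ppara and Rxra had 4, 2, 5 and 4. The liver factors Hnf4a, Nr5a2 and Cebpa had 6, 4 and 5, and Cebpa held the largest area at any partner or regulator, 1737. The thyroid hormone receptors Thra and Thrb had 2 and 5, and Arnt, Nr1h3 and Onecut1 had none. They differ in length from the P450 genes, up to 378 kb for Thrb, so 24.9% is not a like comparison. Among protein-coding genes other than P450, the share with an RCA was 17.4% under 10 kb and 32.8% at 40 kb and over. Both percentages lay above these shares, but the longest class has no upper limit and no share weighted to these genes' lengths was computed.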

How the data were processed

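Per the labels and the paper's methods, the authors trimmed adapters, aligned paired-end reads to mm10 with BWA 0.7.17, removed duplicates and poorly mapped reads, called open regions on the pooled libraries of each genotype with Genrich 0.6, and subtracted regions that overlapped one of the other genotype. The few regions found in calls on single samples had been merged into a blacklist, which the pooled calls left out. The deposited signal (column 7) is the area of the −log10 p curve, the deposited score is 1000 times the area divided by the width, and no more than 1000, and the deposited −log10 q values belong to the summit. The authors gave positions as other columns. Depth per library could not be read from either list, and no interval rests on it.

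Regions were assigned to a gene when they overlapped its GENCODE M21 body or lay within 10 kb of it. The annotation release differs from the one the study used. Classes followed the order promoter (within 200 bp of any start), exon, intron and intergenic. Sequences were read from GRCm38.p6, whose chromosomes are those of mm10, and 82 of 82 RefSeq start-site sequences of members matched it. Copies were sought with BLAST 2.17.0, windows aligned with Biopython 1.88, and overlaps checked on simulated intervals. The members, lists and functional groups were chosen with earlier results of these data known. Genes were named when they had a region at their own start, were among the 15 with the largest summed area, or belonged to a list of P450 genes, partners and regulators set by role. Further genes, sequences shown beyond the 6 with the largest area, and the TATAA search were chosen after their values were seen. Functional groups follow subfamilies, and an enzyme can act in several. No P450 gene was tested between animals, since the calls are pooled.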

Additional observations from a re-analysis of the deposited data

How the results depend on the processing

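The share of P450 genes with a lost region was 32.3% (24.9% of other genes). It was 18.3% (12.8%) with an area of at least 300, 21.5% (19.6%) with a summit q under 0.001 and 55.9% (44.1%) within 50 kb. With neighbouring members counted as 1, a lost region lay at 22 of 41 loci (53.7%), with no such value for other genes. That count includes regions between members, and at 2 of these loci no member had one within 10 kb. Alternatives chosen after seeing the data, leaving out Cyp2d or Cyp2c genes, gave shares of genes of 29.4% and 35.9%. A further one, leaving out genes in stretches without control regions, gave 46.9% (25.7%). The last drops genes without a lost region by construction, so its rise shows nothing about P450 genes. The 48 distinct regions became 19, 27, 29 and 91 with area of at least 300, q under 0.001, gene bodies only and 50 kb. The share with an own start lost went from 12.9% to 6.45% (4.08% of other genes) with q under 0.001, and the promoter-class share from 31.2% to 58.3% (36.7%) with a window of 1000 bp. The ratio of the median area to that at other genes went from 0.977 to 1.25 when the largest area of each P450 locus was taken (median 350). The other genes kept the median over all their regions (280), so this ratio rises by construction and shows nothing about P450 areas. The lowest lost share over loci went from 24.4% to 31.8% when the loci were taken with 100 kb on each side in place of 10 kb, with stretches shared by several loci counted once in both. In each other setting with a value for other genes, the share of P450 genes with a lost region was the higher. A gained region appeared at 1.08% within 50 kb and at none otherwise. No paired analysis was possible because both lists come from pooled calls, and no animal could be left out for the same reason. Pooled calls also do not show how far a region missing from one list falls short of the threshold of 200.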
